A study of Mus musculus with 2 samples.

Results

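The genes described here encode the calcitonin and CGRP peptides and their receptors: the precursors Calca and Calcb, the receptors Calcr and Calcrl, and the accessory proteins Ramp1, Ramp2 and Ramp3. They were taken by name, 7 of the 23912 genes in the count tables, and all 7 were present in both libraries. The nuclei came from TRAP2 mice aged 8 to 12 weeks, a line in which a drug-dependent recombinase is made from the activity-induced Fos locus. A retrograde AAV carrying a nuclear GFP was placed in the lumbar cord, and hindbrain nuclei were sorted and sequenced after a hot water bath or after the condition labelled SNI with brush. The labels do not say whether the virus depended on the recombinase. Hindbrains of each treatment were pooled into 1 library, so there is no replicate, no untreated library and no test between treatments. Intervals are exact 95% intervals for counting error within a library.

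Calca gives rise, by alternative splicing, to calcitonin or to alpha-CGRP, and Calcb encodes beta-CGRP. Calcr, the calcitonin receptor, works alone for calcitonin and together with a RAMP as an amylin receptor. Calcrl reaches the cell surface only with a RAMP: with RAMP1 it forms the CGRP receptor, and with RAMP2 or RAMP3 an adrenomedullin receptor. Both receptors couple to Gs and raise cyclic AMP. CGRP is a classical peptide of pain-sensing neurons, and motor neurons of the brainstem also make it. Counts per gene do not separate the calcitonin and alpha-CGRP transcripts of Calca.

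In mm10 (GENCODE M21), the peptide genes Calca (chr7:114631478-114636357, minus strand) and Calcb (chr7:114718643-114723365, plus strand) lie close together on chromosome 7. Calcrl spans chr2:84330626-84425411 on the minus strand and Ramp1 chr1:91179822-91225196 on the plus strand. Ramp2 (chr11:101246028-101259546) and Ramp3 (chr11:6658521-6677475) lie apart on the plus strand of chromosome 11, and Ramp3 overlaps the gene model Gm11978 on the opposite strand.

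Analysed were 422 neuronal nuclei of the hot water bath library (16158704 UMIs, median 36886 per nucleus) and 270 of the SNI with brush library (10780871 UMIs, median 33205). A UMI is 1 counted transcript molecule, and levels are given as CPM, a gene's share of all summed UMIs times 1000000. Nuclei were called glutamatergic when at least 75% of 3 or more transmitter UMIs came from vesicular glutamate transporters, and inhibitory when at least 75% came from GABA or glycine genes. Nuclei with at least 10 UMIs of Tph2, the enzyme of serotonin synthesis, were set apart first. This gave 251 glutamatergic, 60 inhibitory, 26 Tph2 and 85 other nuclei after the hot water bath, and 122, 104, 3 and 41 after SNI with brush. Mitochondrial genes took 0.149% and 0.493% of the UMIs. The libraries shared 0 barcodes. Neuron markers met the labelled cell type in 425 of 425 and 272 of 288 nuclei. Left out were 16 SNI with brush nuclei with more UMIs of liver markers than of neuron markers, and 3 and 2 nuclei called doublets.

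Calcr was concentrated in glutamatergic nuclei. After the hot water bath, glutamatergic nuclei held 322 Calcr UMIs (31.9 CPM, 28.5 to 35.6) in 45 of 251 nuclei, and inhibitory nuclei held 1 UMI in 60 nuclei (0.466 CPM, 0.0118 to 2.60). The log2 ratio of glutamatergic over inhibitory nuclei was 5.52 (interval 3.61 to 11.4). SNI with brush glutamatergic nuclei held 121 UMIs (21.5 CPM, 17.8 to 25.7) in 16 of 122 nuclei, against 4 UMIs in 3 of 104 inhibitory nuclei, a log2 ratio of 4.14 (2.91 to 6.21). As background, 6.12% of genes with at least 100 UMIs were 1.5-fold or more higher in glutamatergic than in inhibitory nuclei after the hot water bath and 5.89% lower, with 2.59% higher in the other library. Nuclei without a class held 49 UMIs (17.3 CPM) and 2 UMIs (1.52 CPM).

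Among Tph2 nuclei of both libraries, Calcr was seen in 1 nucleus only. The 26 hot water bath Tph2 nuclei held no Calcr UMI, where a floor of 3 counts over the group is 2.74 CPM. The glutamatergic level was 11.7-fold that floor, a value that leaves out the counting error of the glutamatergic level. Genes 1.5-fold or more lower in Tph2 than in glutamatergic nuclei made up 22.5% there, and higher ones 9.32%. Of the 3 SNI with brush Tph2 nuclei, 1 held 58 Calcr UMIs, the highest Calcr count of any nucleus in either library. That nucleus had 41951 UMIs and 82 Tph2 UMIs, and the other 2 held no Calcr UMI. The shares of Tph2 nuclei with Calcr were 0 of 26 (0 to 13.2%) and 1 of 3 (0.840 to 90.6%), with overlapping intervals.

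**Figure D1:**
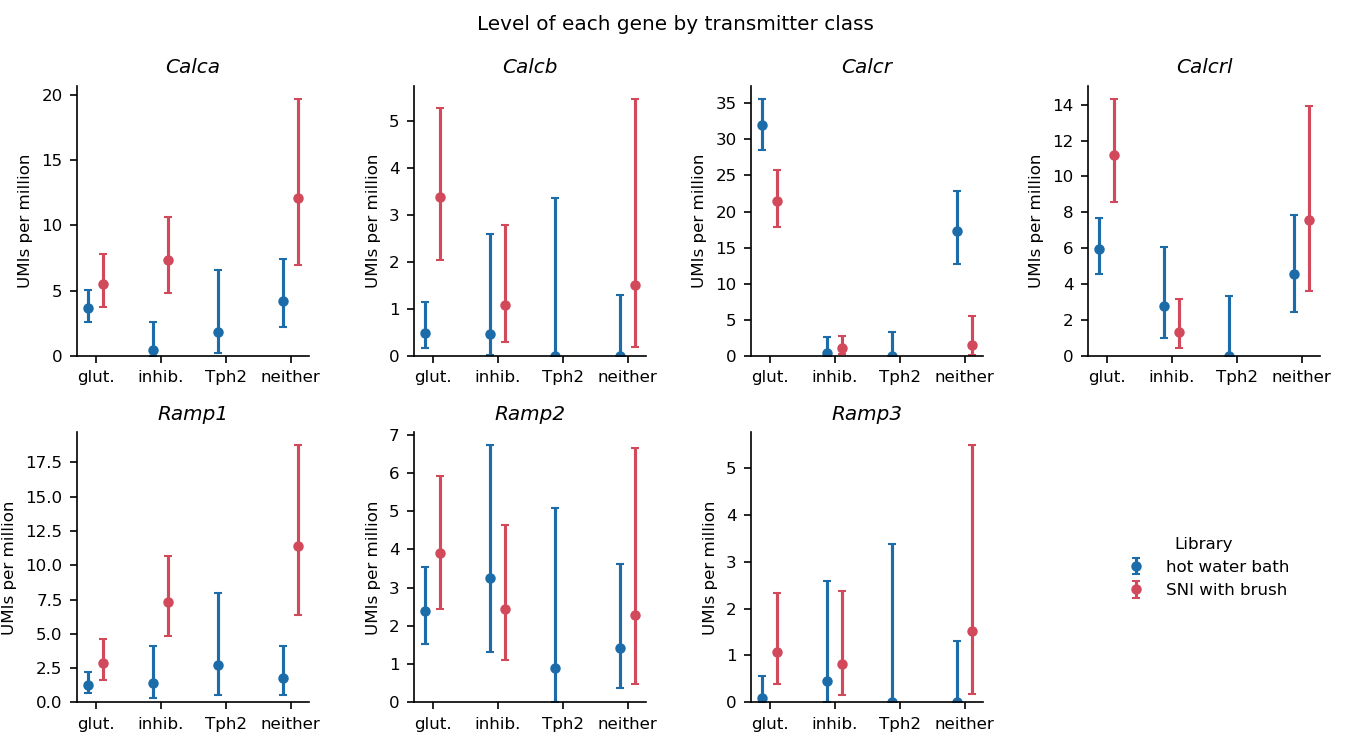
Level of each gene by transmitter class, in CPM of the summed UMIs of the class, with exact Poisson 95% intervals (points, blue hot water bath, red SNI with brush). The 3 SNI with brush Tph2 nuclei are not drawn; Calcr stands at 31.9 and 21.5 CPM in glutamatergic nuclei and at 0.466 and 1.09 in inhibitory nuclei.

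Counts per nucleus showed few nuclei with many Calcr UMIs and most with none. The 6 highest hot water bath nuclei held 38, 22, 16, 16, 15 and 15 UMIs, all glutamatergic. The 6 highest SNI with brush nuclei held 58, 35, 19, 18, 15 and 15, and apart from the Tph2 nucleus all were glutamatergic. Counts of 2 or more were seen in 47 hot water bath nuclei, of which 38 were glutamatergic, 9 without a class and none inhibitory or Tph2. Among SNI with brush nuclei 10 nuclei reached that count: 8 glutamatergic, 1 inhibitory and 1 Tph2. Slc17a6, the vesicular glutamate transporter VGLUT2, was seen in 47 of those 47 and in 8 of those 10 nuclei. Slc17a6 UMIs enter the class rule, so these counts largely restate the classes just given. The gene was also common elsewhere, with a median of 2 UMIs in nuclei without a class in each library.

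Calcrl, the CGRP and adrenomedullin receptor subunit, was also higher in glutamatergic nuclei, but with less contrast. Hot water bath glutamatergic nuclei held 60 UMIs in 17 nuclei (5.95 CPM, 4.54 to 7.66) and inhibitory nuclei 6 UMIs in 3 (2.80 CPM, 1.03 to 6.09). Their log2 ratio of 0.99 had an interval of -0.12 to 2.59 that includes no difference, and it was 2.87 when classes were taken from nuclei with transmitter UMIs of 1 kind only. SNI with brush glutamatergic nuclei held 63 UMIs in 17 nuclei (11.2 CPM, 8.60 to 14.3) and inhibitory nuclei 5 UMIs in 5 (1.36 CPM, 0.441 to 3.17), a log2 ratio of 2.92 (1.75 to 4.72). The 26 hot water bath Tph2 nuclei held no Calcrl UMI, and the glutamatergic level was 2.17-fold the floor of 3 counts. By nuclei, the interval for 0 of 26 (0 to 13.2%) includes the glutamatergic share of 6.77%, so a difference is not shown.

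The highest Calcrl counts were 13, 10 and 8 UMIs among hot water bath nuclei and 19, 14 and 10 among SNI with brush nuclei. Counts of 2 or more were seen in 14 and 9 nuclei, of which 10 and 7 were glutamatergic. Endothelial cells also express Calcrl, so their markers were read in these nuclei. Flt1, Pecam1 and Cldn5 were at 0 in all 14 (interval 0 to 23.2%) and all 9 nuclei (0 to 33.6%), and were seen in 7, 30 and 2 of the other 408 hot water bath nuclei. Counting nuclei with 1 or more Calcrl UMIs, Flt1 was seen in 1 of 24 and 2 of 27, and Pecam1 in 0 of 24 and 5 of 27. Over the whole list of 8 endothelial markers, nuclei with and without a Calcrl UMI stood at 41.8 and 38.3 CPM after the hot water bath and at 45.2 and 46.6 in the other library. Kdr and Cdh5 carry no information where they were at 0 in every neuronal nucleus, Kdr in the hot water bath library and Cdh5 in the other.

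Several other marker lists stood higher in nuclei with a Calcrl UMI than in those without. The 8 motor neuron markers summed to 41.8 against 17.2 CPM after the hot water bath and to 99.9 against 24.0 for SNI with brush. Chat, which makes acetylcholine, was seen in 5 of 24 hot water bath Calcrl nuclei and 19 of 398 others. For SNI with brush these were 2 of 27, holding 23 Chat UMIs, and 14 of 243, and 22 of the 23 UMIs lay in 1 nucleus with 1 Calcrl UMI. Slc18a3, the vesicular acetylcholine transporter, was seen in 3 of 27 and 12 of 243 SNI with brush nuclei and in no hot water bath neuronal nucleus. In the 9 SNI with brush nuclei with 2 or more Calcrl UMIs, Chat, Prph and Slc18a3 were at 0 (0 to 33.6%). This did not hold for Chat after the hot water bath, where nuclei with 13 and 6 Calcrl UMIs each held 1 Chat UMI. The 6 astrocyte markers summed to 34.6 against 21.4 CPM and to 115 against 48.3 CPM, and the 6 microglia markers to 166 against 118 and to 361 against 299. The 6 oligodendrocyte markers summed to 107 against 76.8 after the hot water bath and, in the other order, to 141 against 190.4 for SNI with brush. Their part in the Calcrl levels was not tested.

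No hot water bath nucleus held both receptors. Of the 56 nuclei with a Calcr UMI, 0 held Calcrl (interval 0 to 6.38%), against 24 of 366 nuclei without Calcr (6.56%, 4.25 to 9.60%). SNI with brush nuclei with a Calcr UMI held Calcrl in 3 of 22 cases (13.6%, 2.91 to 34.9%), against 24 of 248 (9.68%, 6.30 to 14.1%). One of these 3 was the Tph2 nucleus with 58 Calcr UMIs, which held 1 Calcrl UMI, and another held 15 Calcr and 3 Calcrl UMIs. After each nucleus was thinned to 9000 UMIs, so that depth was equal, 0 of 39 and 0 of 14 Calcr nuclei held Calcrl, against 19 of 383 and 16 of 256 nuclei without Calcr. The 2 intervals overlap in both libraries, but overlap alone does not decide whether the rates differ. A lower rate of co-detection was not tested.

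**Figure D2:**
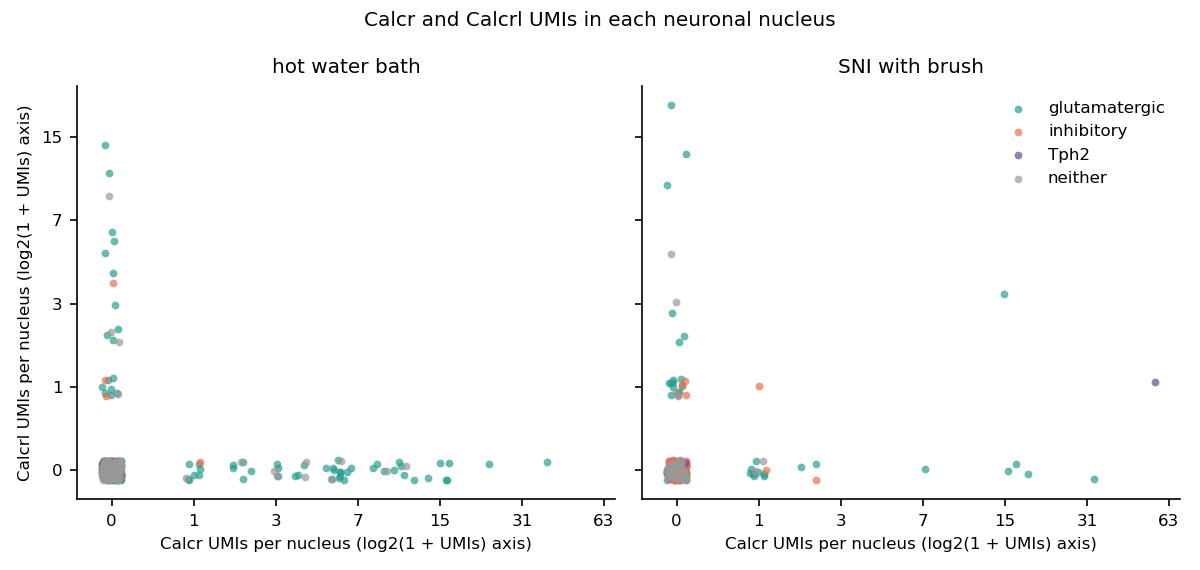
Calcr UMIs (horizontal) and Calcrl UMIs (vertical) in each of 422 hot water bath and 270 SNI with brush neuronal nuclei, both on log2(1 + UMIs) axes, with a small random offset to separate points and colours for the transmitter class. Hot water bath points lie along the axes with 0 nuclei holding both genes, and 3 SNI with brush nuclei hold both.

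The receptors were also read by groups of nuclei. Nuclei were clustered on all genes apart from these 7, which gave 19 clusters, named here by leading genes that also include some of the 7. Of 372 hot water bath Calcr UMIs, 352 (94.6%) lay in clusters 6 and 1, which are led by Crh, Prdm6 and Stk32b and by Creb5, Tgm6 and Gucy2f. Those clusters held 0 Calcrl UMIs in that library. Calcrl was highest in cluster 8, led by Nox4, Col25a1 and Adamts18, with 58 of 79 UMIs in 11 of 25 nuclei, and that cluster held 0 Calcr UMIs. Of 79 SNI with brush Calcrl UMIs, 40 lay in the 53 nuclei of cluster 13, led by Rskr, Arhgap6 and Ebf2 (23.4 CPM), and 12 in the 24 nuclei of cluster 12, led by Gna14, Cbln1 and Sntb1 (12.9 CPM). The level per cluster was again highest in cluster 8, at 72.9 CPM from 11 UMIs in 2 of 3 nuclei, against 57.7 CPM after the hot water bath. Of 185 SNI with brush Calcr UMIs, 117 (63.2%) lay in cluster 10, led by Tph2 (59 UMIs, 58 of them in 1 nucleus), and cluster 14, led by Cyp26b1, Adgrl4 and Trhr (58 UMIs, 86.6 CPM). Clusters 1 and 6 held Calcr in this library too, with 22 UMIs (82.2 CPM) and 17 UMIs in 2 of 2 nuclei (211 CPM), and cluster 2, led by Sapcd1, Acan and P2rx6, held 22 UMIs in 43 nuclei (8.85 CPM). Both receptors were seen in several SNI with brush clusters, among which cluster 2 had 22 Calcr and 3 Calcrl UMIs, cluster 6 had 17 and 3, and cluster 9, led by Slc17a7, had 3 and 5. Clusters 6 and 8 held 32 and 25 hot water bath nuclei but 2 and 3 SNI with brush nuclei.

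**Figure D3:**
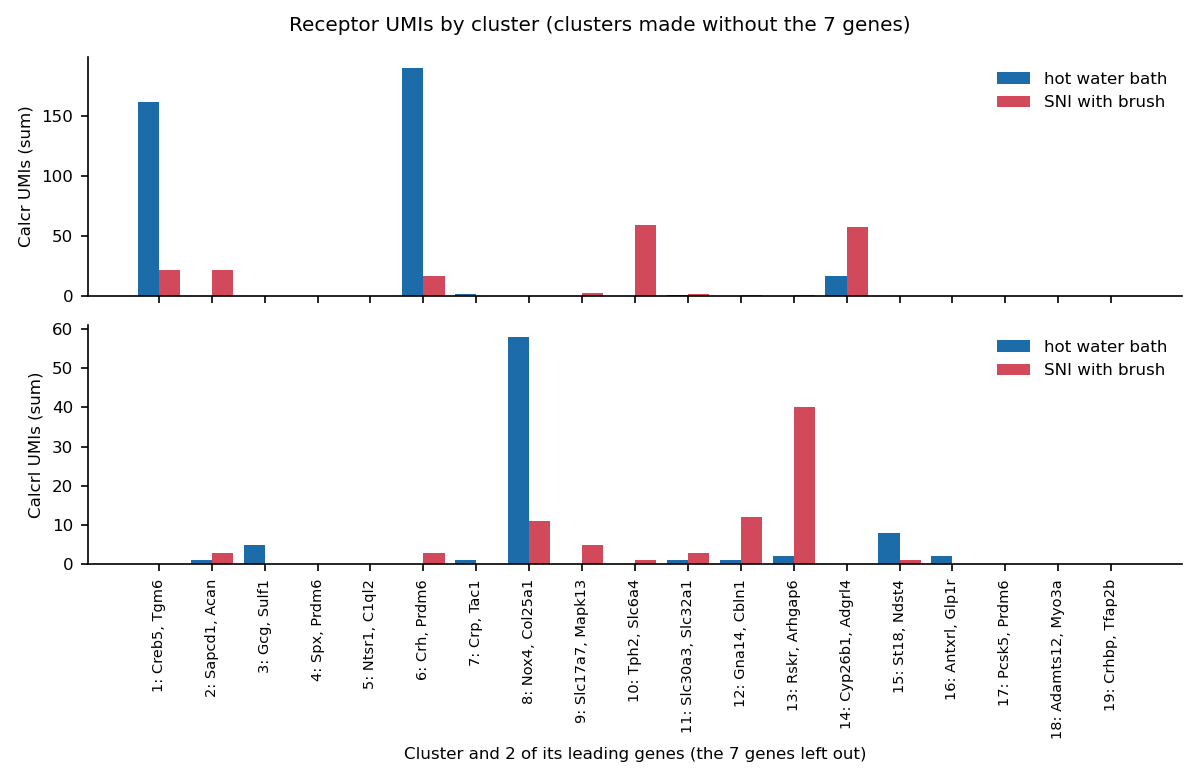
Summed UMIs of Calcr (top) and Calcrl (bottom) in each of 19 clusters made without these 7 genes, blue for hot water bath and red for SNI with brush. Calcr bars reach 190 and 162 UMIs in clusters 6 and 1 and Calcrl bars 58 and 40 UMIs in clusters 8 and 13.

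Crh, the precursor of corticotropin-releasing hormone, was seen in 36 of the 56 hot water bath Calcr nuclei. For SNI with brush it was seen in 5 of the 22 Calcr nuclei. Among 73 hot water bath nuclei with a Crh UMI, 36 (49.3%, 37.4 to 61.3%) held Calcr, at 101 CPM (89.1 to 114). Of the 349 nuclei without Crh, 20 (5.73%, 3.54 to 8.71%) held Calcr, at 7.70 CPM (6.29 to 9.33). SNI with brush nuclei gave the same direction from fewer nuclei. There 5 of 19 Crh nuclei (26.3%, 9.15 to 51.2%) held Calcr, at 39.7 CPM (28.1 to 54.5), against 17 of 251 (6.77%, 3.99 to 10.6%), at 14.96 CPM (12.6 to 17.6). The intervals of these shares overlap. The CPM intervals treat UMIs of 1 nucleus as independent. Of the 38 Calcr UMIs with Crh, 18 and 15 lay in 2 nuclei, and 58 of the 147 without Crh lay in 1 Tph2 nucleus. Median depth was 48554 UMIs with Crh and 32370 without. Thinned to 9000 UMIs, Crh was seen in 17 of 39 Calcr nuclei and 22 of 383 others among hot water bath nuclei, and in 3 of 14 and 7 of 256 among SNI with brush nuclei. Calcrl was seen in 2 of 73 hot water bath Crh nuclei (2.74%, 0.334 to 9.55%) and 22 of 349 others (6.30%, 3.99 to 9.39%), and in 2 of 19 (10.5%) and 25 of 251 (9.96%) for SNI with brush, with overlapping intervals in both. Calcr was not limited to Crh nuclei, since cluster 14 held 17 and 58 Calcr UMIs and 0 nuclei with Crh. Nor did every cluster with Crh hold Calcr. Cluster 4, led by Spx, Prdm6 and Serpine2, held Crh in 12 of 23 hot water bath nuclei and 0 Calcr UMIs.

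Asb4, an ankyrin repeat and SOCS box protein, was the single gene whose pattern across nuclei reached the likeness set for naming, a Pearson r of at least 0.3 on log-scaled counts in both libraries. The r with Calcr was 0.36 over 422 nuclei and 0.42 over 270 nuclei, among 11999 genes compared. Nuclei of 1 library share its depth and pool, so this is a description, and in nuclei thinned to 9000 UMIs r was 0.32 and 0.21. Of the 47 hot water bath nuclei with 2 or more Calcr UMIs, 28 (59.6%, 44.3 to 73.6%) held Asb4, against 41 of 375 (10.9%, 7.96 to 14.5%). Among SNI with brush nuclei the counts were 7 of 10 and 16 of 260. Asb4 was picked by its r with Calcr in these same nuclei, so these unthinned counts restate that likeness.

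**Figure D4:**
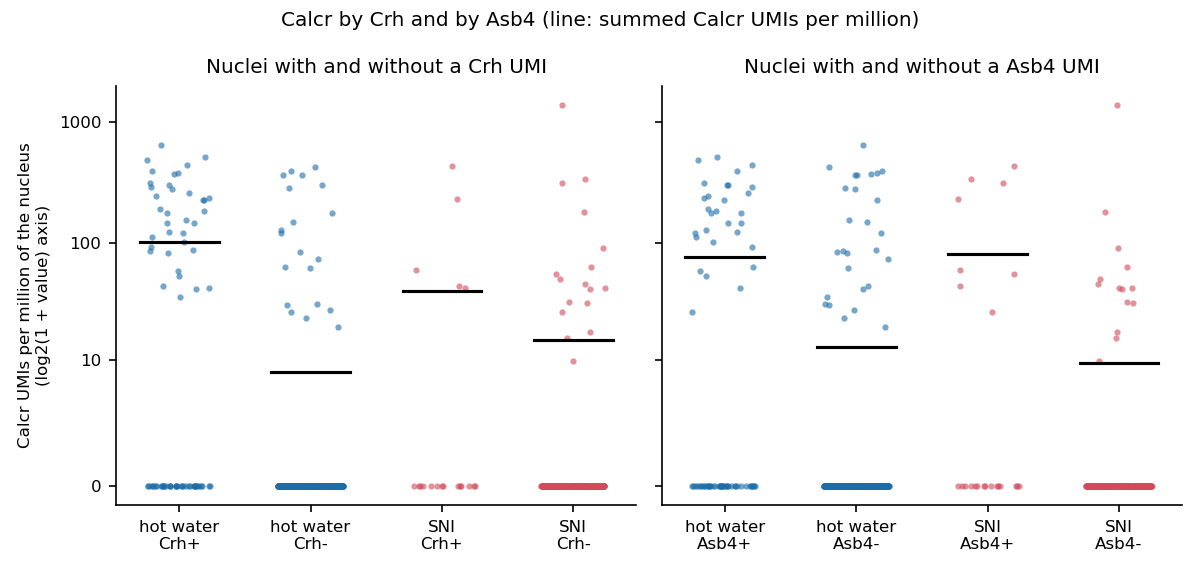
Calcr CPM of each nucleus, on a log2(1 + value) axis, in nuclei with and without a Crh UMI (left) and an Asb4 UMI (right), blue for hot water bath and red for SNI with brush; each point is a nucleus and each black line the summed level of its group. For Crh the lines stand at 101 and 7.70 CPM after the hot water bath and at 39.7 and 14.96 among SNI with brush nuclei.

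Calcr and Asb4 are neighbours at a distance of 1.62 Mb on chromosome 6. In mm10 (GENCODE M21), Calcr (ENSMUSG00000023964) spans chr6:3685680-3764714 on the minus strand, with Mir653 and Mir489 inside it, and Asb4 (ENSMUSG00000042607) spans chr6:5383386-5433022 on the plus strand. Both are known in mouse as imprinted genes expressed from the maternal copy, and Peg10, which lies between them, as expressed from the paternal copy. Of 14 protein-coding genes from Calcr to Asb4, 8 were seen in enough nuclei to be compared. Peg10 had r of 0.23 and 0.33 with Calcr, which fell to 0.093 and 0.0031 in thinned nuclei, and the other five compared genes ranged from -0.076 to 0.21. The sequence before each annotated RefSeq start of the pair (GRCm38.p6, transcript strand, annotated exon bases removed) is shown because these genes were detected together. Capitals mark matches, on either strand, to TGACG (the core of the cyclic AMP response element), CCAAT or GGGCGG (the GC box).
Calcr, start within the gene, chr6:3763631-3763873, minus strand: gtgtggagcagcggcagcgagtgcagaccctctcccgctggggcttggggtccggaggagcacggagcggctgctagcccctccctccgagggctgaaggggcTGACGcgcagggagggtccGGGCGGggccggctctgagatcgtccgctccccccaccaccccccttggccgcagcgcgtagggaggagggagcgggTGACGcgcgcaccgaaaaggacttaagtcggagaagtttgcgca
Calcr, outer start, chr6:3764715-3764963, minus strand: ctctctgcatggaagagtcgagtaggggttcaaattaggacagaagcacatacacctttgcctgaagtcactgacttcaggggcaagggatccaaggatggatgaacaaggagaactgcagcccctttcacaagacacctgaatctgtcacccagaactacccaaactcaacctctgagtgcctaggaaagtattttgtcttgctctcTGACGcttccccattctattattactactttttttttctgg
Asb4, outer start, chr6:5383136-5383385, plus strand: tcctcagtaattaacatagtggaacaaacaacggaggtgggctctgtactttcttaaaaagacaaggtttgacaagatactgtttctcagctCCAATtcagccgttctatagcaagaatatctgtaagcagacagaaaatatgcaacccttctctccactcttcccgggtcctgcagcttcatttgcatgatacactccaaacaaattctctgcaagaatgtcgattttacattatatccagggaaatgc
Asb4, start within the gene, chr6:5390160-5390409, plus strand: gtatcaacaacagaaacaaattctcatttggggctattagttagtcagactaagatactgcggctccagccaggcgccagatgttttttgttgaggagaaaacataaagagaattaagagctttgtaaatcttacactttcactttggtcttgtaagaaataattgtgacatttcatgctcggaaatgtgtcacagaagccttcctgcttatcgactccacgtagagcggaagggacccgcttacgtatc

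The 2 Calcr windows differed in base composition. Over the 250 bases before each start, G and C made up 70.8% at the start within the gene, with 24 CG dinucleotides, and 46% at the outer start, with 2. The Asb4 windows had 40.8% and 4 at the outer start and 41.6% and 8 at the other. The median over 32851 windows of the same length was 52.4%, and 92.2% of windows were at or below the value of the Calcr start within the gene. TGACG occurred 2 times in that window and 1 time in the outer Calcr window, GGGCGG 1 time in the former and CCAAT 1 time in the outer Asb4 window. The longer element TGACGTCA, which contains TGACG, and the TATA letters TATAAA were searched in the same way and matched none of these windows. Of all windows, 17.8% held TGACG, 33.85% CCAAT, 32.7% GGGCGG, 1.55% TGACGTCA and 12.4% TATAAA. A match describes letters only, and the counts per gene do not show which start was used.

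The accessory proteins were thinly detected. Ramp1, the partner for the CGRP receptor, gave 24 UMIs in 23 hot water bath nuclei and 58 UMIs in 34 SNI with brush nuclei, 31 of the 58 in cluster 13. The 6 astrocyte markers summed to 17.7 CPM in hot water bath nuclei with Ramp1 and 22.4 without, and to 114 and 47.5 CPM for SNI with brush. The 8 motor neuron markers summed to 69.7 and 15.2 CPM after the hot water bath and to 27.0 and 32.0 for SNI with brush. The part of either list in the Ramp1 levels was not tested. Ramp2 gave 36 UMIs in 32 nuclei and 36 UMIs in 33 nuclei, and Ramp3 gave 2 UMIs in 2 and 12 UMIs in 11. No nucleus held more than 2 UMIs of a Ramp apart from 2 SNI with brush nuclei with 16 and 5 Ramp1 UMIs. Ramp2 shares its annotated span on chromosome 11 with Vps25 on the same strand, so its counts are uncertain.

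No Ramp was clearly tied to a transmitter class. Ramp2 stood at 2.38 CPM in glutamatergic nuclei (1.53 to 3.54) and 3.26 in inhibitory nuclei (1.31 to 6.72) after the hot water bath, and at 3.91 (2.45 to 5.92) and 2.44 (1.12 to 4.64) among SNI with brush nuclei. Ramp1 was level after the hot water bath, at 1.29 (0.686 to 2.20) and 1.40 (0.288 to 4.09). SNI with brush inhibitory nuclei had 7.33 Ramp1 CPM (4.83 to 10.7) against 2.84 (1.63 to 4.62) in glutamatergic nuclei, a log2 ratio of glutamatergic over inhibitory of -1.35. That ratio was -0.27 without the 1 top nucleus of each class, 1 inhibitory nucleus holding 16 of the 27 UMIs. As background, 3.82% of genes were at least 1.5-fold lower in glutamatergic nuclei of that library.

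The intervals for holding a Ramp overlapped between nuclei with and without a receptor UMI, in both libraries. Overlap does not show that the shares were equal, and a difference was not tested. Any Ramp was seen in 4 of 56 hot water bath Calcr nuclei (7.14%, 1.98 to 17.3%) and in 50 of 366 without Calcr (13.7%, 10.3 to 17.6%). Calcrl nuclei held one in 4 of 24 cases (16.7%, 4.74 to 37.4%), against 50 of 398 (12.6%, 9.47 to 16.2%). SNI with brush Calcr nuclei held one in 5 of 22 cases (22.7%, 7.82 to 45.4%), against 67 of 248 (27.0%, 21.6 to 33.0%). Calcrl nuclei of that library held one in 10 of 27 cases (37.0%, 19.4 to 57.6%), against 62 of 243 (25.5%, 20.2 to 31.5%).

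Ramp2 was seen in 7 of 27 SNI with brush Calcrl nuclei (25.9%, 11.1 to 46.3%) and 26 of 243 others (10.7%, 7.11 to 15.3%), and in 3 of 24 and 29 of 398 hot water bath nuclei. Ramp1, needed for a CGRP receptor, was seen in 1 of 24 and 2 of 27 Calcrl nuclei, against 22 of 398 and 32 of 243 others. Thinned to 9000 UMIs, the order for Ramp1 was the other way, at 1 of 19 against 10 of 403 and 2 of 16 against 14 of 254, and Ramp2 stood at 1 of 19 against 5 of 403 and 1 of 16 against 9 of 254, all with overlapping intervals. Ramp2 was seen in 0 of 56 hot water bath Calcr nuclei (0 to 6.38%), against 32 of 366 (8.74%, 6.06 to 12.1%), and in 4 of 22 SNI with brush Calcr nuclei against 29 of 248. Thinned to 9000 UMIs, any Ramp was left in 1 of 39 and 3 of 14 Calcr nuclei and in 2 of 19 and 3 of 16 Calcrl nuclei. The corresponding counts without the receptor were 16 of 383, 26 of 256, 15 of 403 and 26 of 254. With most Ramp counts at 1 UMI, a nucleus without a Ramp UMI is not shown to lack the transcript.

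**Figure D5:**
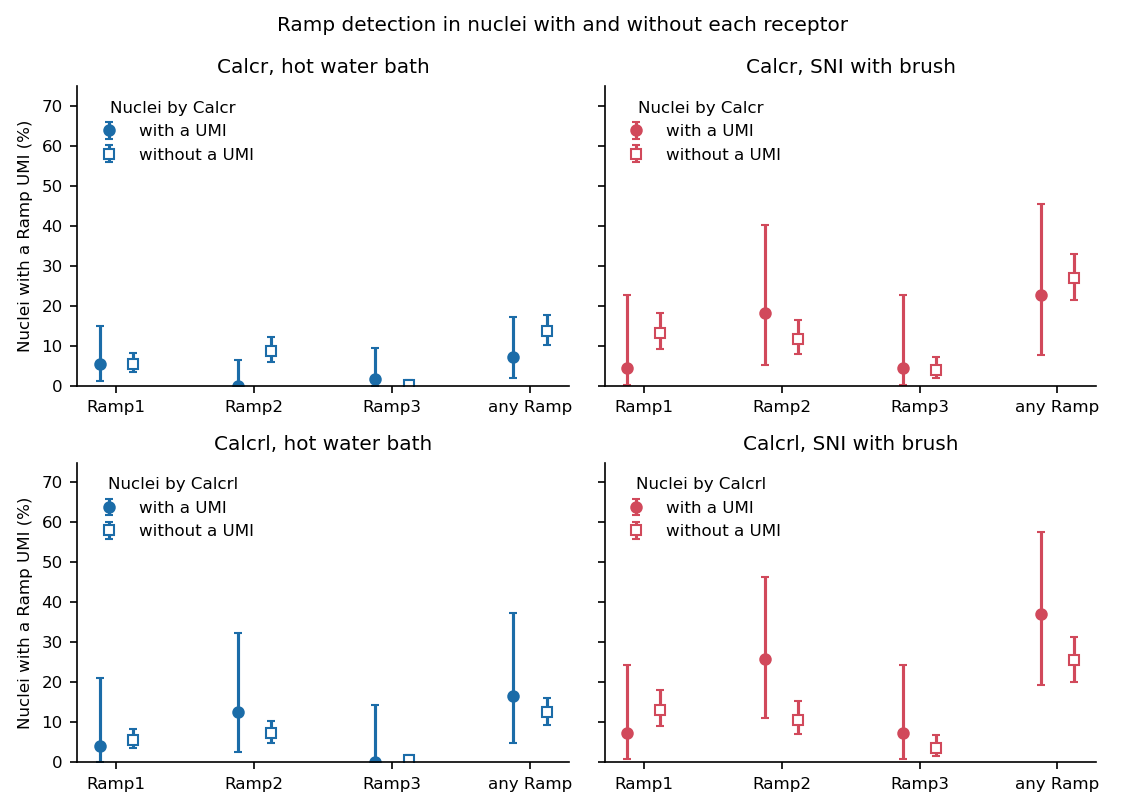
Share of nuclei with a UMI of each Ramp, in percent, among nuclei with (filled) and without (open) a UMI of Calcr (top) or Calcrl (bottom), in the hot water bath (blue) and SNI with brush (red) libraries, with exact 95% intervals. Filled and open intervals overlap in each pair drawn, for example 37.0% and 25.5% for any Ramp by Calcrl among SNI with brush nuclei.

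Of the peptide precursors, Calca was seen in 24 of 422 hot water bath nuclei (5.69%, 3.68 to 8.34%) with 52 UMIs, and in 52 of 270 SNI with brush nuclei (19.3%, 14.7 to 24.5%) with 74 UMIs. Only 8 and 10 of these nuclei held 2 or more, and the highest count was 10 in each library. The hot water bath nucleus with 10 was glutamatergic and the SNI with brush nucleus with 10 was inhibitory. Hot water bath glutamatergic nuclei held 37 UMIs (3.67 CPM, 2.58 to 5.06) against 1 UMI in inhibitory nuclei, whereas among SNI with brush nuclei the classes stood at 5.51 (3.74 to 7.82) and 7.33 (4.83 to 10.7). The log2 ratios of glutamatergic over inhibitory were 2.41 (0.41 to 8.32) and -0.42 (-1.20 to 0.39). The first turned to -1.28 when a nucleus took the class of its cluster, and the second to 1.33 with transmitter UMIs of 1 kind only, so both directions rest on how nuclei were classed. Of the 16 SNI with brush nuclei that were not neuronal, 1 held Calca (6.25%, 0.158 to 30.2%), at a median depth of 20452 UMIs against 33205, and the interval includes the neuronal share.

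Calcb, the beta-CGRP precursor, was rarer, with 6 UMIs in 6 hot water bath nuclei and 25 UMIs in 14 SNI with brush nuclei. Of the latter, 7 and 6 UMIs lay in 2 glutamatergic nuclei of 128130 and 104538 UMIs, and each of the other nuclei held 1. The first of these also held 7 Calcr UMIs. Calca and Calcb were seen together in 2 of 24 and 4 of 52 Calca nuclei. A receptor and a peptide were seen together in 4 of 80 receptor nuclei (5.00%, 1.38 to 12.3%) after the hot water bath, against 24 of 342 nuclei without a receptor (7.02%, 4.55 to 10.3%). Among SNI with brush nuclei these were 14 of 46 (30.4%, 17.7 to 45.8%) and 48 of 224 (21.4%, 16.2 to 27.4%). The intervals overlap, and after thinning the counts were 1 of 58 and 0 of 30 receptor nuclei.

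Between the 2 libraries, the peptides and Ramp1 were higher in SNI with brush and Calcr was higher in hot water bath. All neuronal nuclei had 3.22 and 6.86 Calca CPM in hot water bath and SNI with brush, a log2 ratio of 1.09 (0.56 to 1.63). Calcb stood at 0.371 and 2.32 (log2 ratio 2.56, 1.32 to 4.22), Ramp1 at 1.49 and 5.38 (1.84, 1.15 to 2.61) and Ramp3 at 0.124 and 1.11 (2.91, 1.00 to 6.37). Calcrl stood at 4.89 and 7.33 (0.58, 0.12 to 1.05) and Ramp2 at 2.23 and 3.34 (0.58, -0.12 to 1.29). Calcr was lower in SNI with brush, at 23.0 and 17.2 (-0.42, -0.69 to -0.17). These ratios compare 2 libraries, not the treatments.

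The comparison ran in a skewed background. Of 12991 genes with at least 100 UMIs, 25.4% passed 1.5-fold upward and 5.98% passed it downward in SNI with brush, with a median log2 ratio of 0.19. Of the 3 genes of the system that reached 100 UMIs, Calca was past 1.5-fold and Calcr and Calcrl were under it. Size factors lowered every ratio by 0.19. The libraries also differed in the share of inhibitory nuclei and in mitochondrial UMIs. Markers of other cell types, summed over neuronal nuclei, were higher for SNI with brush as well: liver 40.8 against 3.34 CPM, microglia 305 against 121, oligodendrocyte 186 against 78.3 and astrocyte 54.8 against 22.1, and their part in the ratios was not tested. In nuclei with at most 0.5% mitochondrial UMIs the Ramp1 ratio was 0.85, whereas Calca stood at 1.33 and Calcr at -0.33. Calcr was -0.81 without the 1 top nucleus of each library and -0.97 as a mean over nuclei.

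Within glutamatergic nuclei alone, Calcr was lower in SNI with brush (31.9 and 21.5 CPM, log2 ratio -0.57, interval -0.88 to -0.26) and Calcrl was higher (5.95 and 11.2, 0.91, 0.38 to 1.45). These intervals treat UMIs of 1 nucleus as independent. In SNI with brush, 1 nucleus held 35 of 121 Calcr UMIs, and the top nuclei held 19 and 14 of 63 Calcrl UMIs. The shares of nuclei were 17.9% (13.4 to 23.2%) and 13.1% (7.69 to 20.4%) for Calcr. For Calcrl they were 6.77% (3.99 to 10.6%) and 13.9% (8.33 to 21.4%). Calca was 3.67 and 5.51, and its ratio of 0.59 had an interval of -0.15 to 1.31 that includes no difference. Ramp1 was 1.29 and 2.84, with a ratio of 1.13 (-0.01 to 2.32). Inhibitory nuclei held 1 and 27 Calca UMIs (log2 ratio 3.42, 1.37 to 9.33) and 3 and 27 Ramp1 UMIs (2.19, 0.69 to 4.76), of which 10 and 16 came from 1 SNI with brush nucleus each. At least 1.5-fold higher in SNI with brush were 21.4% of genes in glutamatergic and 24.7% in inhibitory nuclei, and 6.06% and 6.41% were lower. Summed counts do not separate fewer nuclei with a gene from less RNA per nucleus.

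Other genes of the pathway were read in the same way. Adm, the adrenomedullin precursor, gave 21 and 22 UMIs, with an interval that includes no difference (log2 ratio 0.65, -0.28 to 1.59). Crcp, a component linked to CGRP receptor signalling, was level, at 21.3 and 22.1 CPM (0.05, -0.19 to 0.30). Adm2 and Iapp, the precursors of intermedin and amylin, were not among the genes in the count tables, so no level can be given. Of 8 genes that process peptide precursors, 2 were at least 1.5-fold higher and 1 lower in SNI with brush: Pcsk1n, a convertase inhibitor (log2 ratio 1.21), Furin (0.87) and the prohormone convertase Pcsk1 (-0.63). The background over all genes with at least 100 UMIs was 25.4% higher and 5.98% lower. Pam, which amidates calcitonin and CGRP, was 321 and 274 CPM (-0.23, -0.29 to -0.16). None of 5 genes for peptide breakdown passed 1.5-fold. The median log2 ratios of these lists were 0.10 and 0.08, against 0.19 for all genes with at least 100 UMIs.

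Of 12 genes of the Gs pathway and receptor desensitisation, 5 were at least 1.5-fold higher in SNI with brush and none lower, against a background of 25.4% and 5.98%. They were Arrb2 (log2 ratio 0.94), an arrestin, the protein kinase A subunits Prkaca (0.87) and Prkar1a (0.79), and the receptor kinases Grk2 (0.86) and Grk3 (0.61). Gnas, which encodes the Gs alpha subunit, was level at 802 and 800 CPM. The median of the list was 0.09, below the 0.19 of the genes with at least 100 UMIs. In the classes, 5 of 12 stood past 1.5-fold in inhibitory nuclei and 4 of 12 in glutamatergic nuclei, where the background was 24.7% and 21.4%.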

How the data were processed

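The deposited UMI counts (whole numbers, genes by nuclei, 1 file for each library) were analysed unscaled. The submitters' processing notes name mm10, Seurat and Cell Ranger 5.0, and per the labels the kit was 10x 3' version 3. Of 723 and 850 listed barcodes, 425 and 288 had a column, and how the authors chose them was not stated. A nucleus counted as neuronal with at least 3 of 8 neuron markers and fewer liver than neuron marker UMIs. Doublets were called by Scrublet in scanpy 1.11.5. The calls changed with the random seed, from 1 to 3 hot water bath nuclei and from 2 to 8 SNI with brush nuclei, and those of seed 0 were used. Levels are CPM of summed UMIs with exact Poisson intervals, shares have exact Clopper-Pearson intervals, and ratios add 0.5 UMI to both counts, with exact conditional intervals. A count of 0 was given a limit of 3 counts. Background genes needed 100 UMIs. Clusters used 2000 variable genes, 30 components, 15 neighbours and resolution 1. With 1 library per treatment no p-value was computed. The genes, lists and rules were chosen with earlier results of these data known. All 7 genes are named, whereas Crh, the cluster values and Peg10 were chosen after their values were seen. Scripts were tested on simulated data (scipy 1.17.1, pandas 2.3.3, python 3.11.15).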

Additional observations from a re-analysis of the deposited data

Results flagged for a closer look

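In the SNI with brush library, Calcr was higher in Tph2 than in glutamatergic nuclei, with a log2 ratio of 4.16, the opposite of the hot water bath library, where Tph2 nuclei held no Calcr UMI. The difference was not tested, and all 58 UMIs came from 1 of 3 nuclei. Genes at least 1.5-fold higher in Tph2 than in glutamatergic nuclei made up 22.7% in that library.

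Among the 16 SNI with brush nuclei that were not neuronal and entered no comparison, Calcrl gave 8 UMIs, all in 1 nucleus.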

How the results depend on the processing

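No paired analysis was possible because each treatment has 1 library. Of 49 alternatives for the 7 library ratios, 39 kept direction and stayed near the value given. Restricted to inhibitory nuclei, a choice made after seeing the data, the log2 ratios were Calca 3.42, Calcb 0.81 and Ramp3 0.44, and Calcr (0.81), Calcrl (-1.02) and Ramp2 (-0.44) turned direction, on at most 16 UMIs each. Calcr was -0.97 as a mean over nuclei and -0.81 without the top nucleus of each library. Ramp1 was 0.85 in nuclei with at most 0.5% mitochondrial UMIs and 1.13 in glutamatergic nuclei. Of 77 alternatives for the glutamatergic over inhibitory and Tph2 over glutamatergic ratios, 72 stayed near. Hot water bath Calca turned to -1.28 by class of the cluster and to -0.30 with clusters made without the 7 genes. With transmitter UMIs of 1 kind only, Calcrl was 2.87 in hot water bath and Calca turned to 1.33 in SNI with brush. Ramp1 in SNI with brush was -0.27 without the top nucleus per class. The cause of these changes was not tested. Of 231 alternatives for the levels by class, 197 stayed near and 34 moved. Of 16 alternatives for co-detection, 11 stayed near and 5 moved. Thinned to 5000 UMIs, any Ramp was seen in 0 of 32 hot water bath and 0 of 7 SNI with brush Calcr nuclei (0 to 10.9% and 0 to 41.0%). Without Calcr the counts were 10 of 390 and 17 of 263. With 2 or more UMIs of both, any Ramp was seen in 0 of 47 hot water bath Calcr nuclei, against 7 of 375. For hot water bath Calcrl, the 2 settings gave 0 of 12 against 10 of 410 and 0 of 14 against 7 of 408. Among inhibitory nuclei, under 5 held either receptor after thinning, so no share was taken. The smaller r of Calcr and Asb4 was 0.21 after thinning. With genes of at least 20 UMIs, 5259 were at least 1.5-fold higher and 1468 lower, against 3296 and 777. Few UMIs per nucleus limit each share, and intervals cover counting error only.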
